A study of Mus musculus with 6 samples.

Results

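Transcript levels of 5 genes of the early T cell programme and the Notch pathway, Dntt, Ikzf3, Hes1, Id3 and Gata3, were followed across 3 clonal lines of EL4, a mouse T lymphoma line. They were read from 8 of the 45101 probe sets in the signal table of an Affymetrix mouse array. The probe sets were chosen by the full gene name in either of the authors' lists of differing probe sets, which left 3 for Dntt, 2 for Ikzf3 and 1 each for Hes1, Id3 and Gata3. Each line gave 2 aliquots of cells, for 6 arrays in all, and all 3 lines are derived from EL4 and were kept overnight in medium without serum, with no other treatment. WT2 is labelled as sensitive to PMA, a phorbol ester, and as non-adherent and non-metastatic. V7 is labelled as PMA-resistant, adherent and metastatic, and C5 as PMA-resistant, adherent and highly metastatic. Each phenotype label of WT2 and each metastasis label is carried by 1 clone, so clone and phenotype cannot be told apart. Nothing in the labels makes the aliquots separate cultures, and p-values measure only the spread between them, which may be technical.

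Developing T cells rearrange their receptor genes in the thymus under the control of Notch, a receptor that is cut on ligand binding and whose inner part joins the DNA-binding protein RBPJ to switch on targets such as Hes1. Hes1 encodes a basic helix-loop-helix repressor, and Gata3 a zinc finger transcription factor that the T lineage needs. E proteins, another class of helix-loop-helix factors, drive early lymphoid genes, and Id3 binds them and keeps them off DNA. Ikzf3 encodes Aiolos, a zinc finger protein of the Ikaros family. Dntt encodes terminal deoxynucleotidyltransferase, which adds bases without a template at the joints of rearranging receptor genes and marks immature lymphocytes.

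The stretches of DNA just upstream of the starts of Dntt and Id3 are shown because these were the only members that the authors listed as lower in C5 than in V7. Both are the 250 bases before the gene start in RefSeq (GRCm38.p6), read 5′ to 3′ on the plus strand, on which both genes lie. The Dntt stretch is chr19:41029025-41029274 and the Id3 stretch is chr4:136143572-136143821. Capitals mark exact matches, on either strand, to any of 4 motifs. These were the RBPJ motif TGGGAA, the E-box CANNTG, the N-box CACNAG bound by HES proteins, and the GATA motif AGATAA.
Dntt: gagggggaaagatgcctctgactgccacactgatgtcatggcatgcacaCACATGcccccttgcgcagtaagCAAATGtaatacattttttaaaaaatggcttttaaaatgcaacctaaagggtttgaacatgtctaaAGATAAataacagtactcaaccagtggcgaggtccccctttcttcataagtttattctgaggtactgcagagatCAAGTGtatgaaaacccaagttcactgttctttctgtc
Id3: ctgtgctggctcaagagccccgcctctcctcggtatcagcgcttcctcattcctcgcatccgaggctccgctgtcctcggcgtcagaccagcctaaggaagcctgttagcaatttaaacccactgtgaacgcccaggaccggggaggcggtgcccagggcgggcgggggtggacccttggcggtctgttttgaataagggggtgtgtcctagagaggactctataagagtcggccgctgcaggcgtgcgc

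The Dntt stretch held 3 E-boxes, which begin 201, 178 and 38 bases before the start, and 1 GATA motif, which begins 112 bases before it. No 2 of these matches overlap. The Id3 stretch held none of the 4 motifs. The matching stretch of Gata3, on the minus strand at chr2:9878601-9878850 and inside the annotated span of that gene, held 2 N-boxes and none of the others. Of 32851 upstream stretches of this length in the same RefSeq table, 66.2% held an E-box, 36.7% an N-box, 21.6% the RBPJ motif and 9.99% the GATA motif. GC content was 41.6% for Dntt, 62.8% for Id3 and 70.0% for Gata3. A match is a description of these letters and not a binding site.

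Signals are MAS5 values on a linear scale, which the authors had scaled so that each array has the same 2% trimmed mean of 125. They ranged from 0.0209 to 19720, and array medians lay between 15.8 and 21.5, highest on the WT2 arrays. Aliquots of one line correlated across tested probe sets with r of 0.956 to 0.974, V7 with C5 arrays with 0.966 to 0.968, and WT2 with the other arrays with 0.876 to 0.892. Gapdh control probes at the 3′ and 5′ ends stood at a ratio of 1.51 and 1.77 on the WT2 arrays and 0.829 to 1.15 on the others, so it moved with WT2. The same ratio for beta-actin overlapped between lines (1.83 to 2.91). The part of RNA quality in the differences from WT2 was not tested. In cell pools, fewer cells with a transcript and less of it per cell cannot be told apart.

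Dntt and Ikzf3 were higher in both PMA-resistant clones than in WT2, and Hes1 and Gata3 were lower in both. Id3 was lower than in WT2 in C5, with no call between V7 and WT2. Between C5 and V7 only Dntt was called, at 28.1% and 28.2% of its V7 signal on 2 of its 3 probe sets. Changes were called where limma gave an adjusted p under 0.05 and the fold on log2(signal + 5.03) was 2 or more, and all 8 probe sets passed the filter on mean signal (above 11.7). Of the 8, 5 were higher and 2 lower in V7 than in WT2, where 12.5% of the 27022 tested probe sets were called. These were 5.29% higher (1430) and 7.23% lower (1955), or 1705 and 1529 probe sets after quantile normalization. From V7 to C5, 0 were higher and 2 lower, and 0.0999% of all tested probe sets were called, 0.0296% higher and 0.0703% lower. At an unadjusted p under 0.05 in the same limma fit, 4 of the 8 differed between C5 and V7, against 6.50% of all. In C5 against WT2, 5 were higher and 3 lower, and 13.0% of all were called, 5.58% higher and 7.46% lower (1509 and 2015 probe sets, or 1806 and 1739 after quantile normalization). The authors' lists, which supplied the names, had already selected 7 of the 8 for a difference between V7 and WT2 and 4 for one between C5 and V7, so nothing is read from these shares. C5 against WT2 was in neither list, but it shares the WT2 arrays with one of them. The median log2 change of the 8 was 1.51, −0.72 and 1.28 in the 3 comparisons, against −0.13, 0.017 and −0.075 over all tested probe sets.

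**Figure D1:**
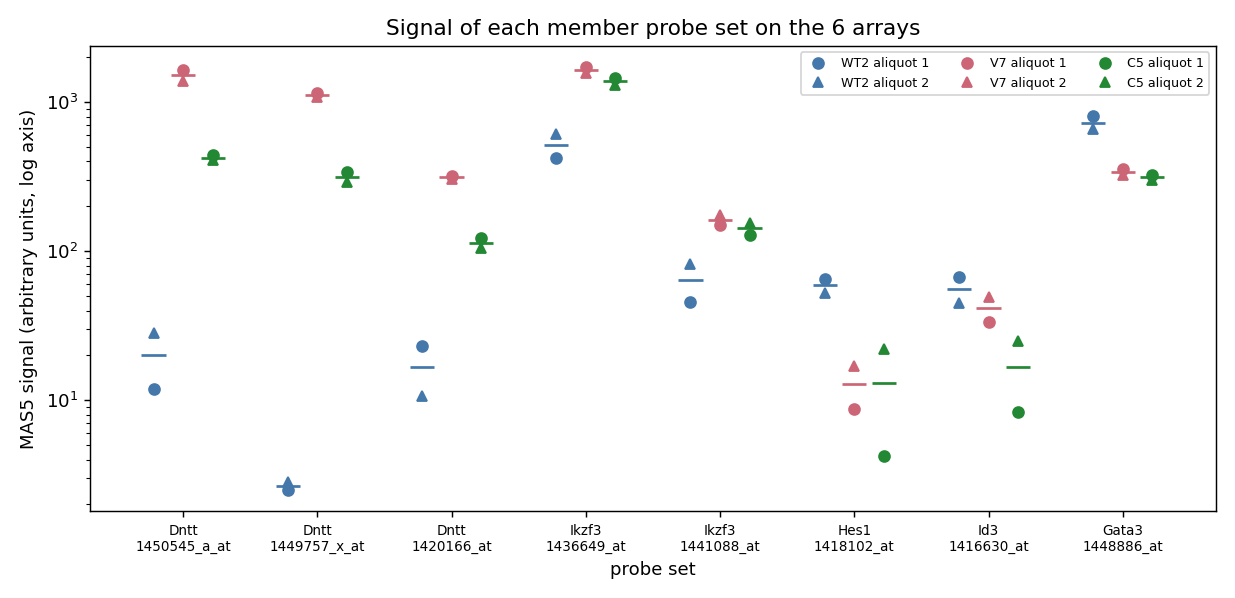
MAS5 signal (log axis) of the 8 probe sets on each of the 6 arrays, with circles for aliquot 1, triangles for aliquot 2 and a bar for the mean of each line. WT2 lies lowest for Dntt and Ikzf3 and highest for Hes1 and Gata3. The C5 aliquots lie far apart for Hes1 (4.21 and 22.03) and Id3 (8.40 and 25.03). Heights of different probe sets are not comparable.

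Dntt had the largest changes of the 5 genes. Its brightest probe set, 1450545_a_at, gave 11.97 and 28.4 in WT2, 1635 and 1390 in V7 and 440 and 409 in C5. The lines did not overlap, and V7 was highest, C5 intermediate and WT2 lowest. Against WT2 the log2 change was 5.99 in V7 (SE 0.26, adjusted p = 2.92e-08) and 4.17 in C5 (SE 0.26, adjusted p = 5.55e-07). The WT2 signals lay near the array medians and differed 2.38-fold, so the sizes rest on dim values. With 1 array left out the change was 5.50 to 6.47 in V7 and 3.68 to 4.66 in C5.

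The second Dntt probe set, 1449757_x_at, whose suffix marks probes that may bind other transcripts, gave 2.50 and 2.83 in WT2, 1159 and 1079 in V7 and 341 and 290 in C5. It showed the same order of the lines, and both of its WT2 signals were below the constant of 5.03 added before taking logs. Its log2 change from WT2 to V7 was 7.19, the 22nd largest in size of all tested, but with 1 as the constant it was 8.26, and with the median signal 5.78. The third, 1420166_at, gave 23.1 and 10.6 in WT2, 322 and 304 in V7 and 123 and 105 in C5. It rose by 3.92 in V7 and 2.50 in C5. Both of these probe sets carry the same sequence accession in the authors' lists, so they are not independent readings of the transcript. All 3 probe sets kept their calls against WT2 in each of the 16 other settings tried, where the adjusted p was at most 0.00992.

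From V7 to C5 Dntt was lower on every probe set and on both aliquots of each. The log2 change was −1.82 (SE 0.26, adjusted p = 0.0250) on 1450545_a_at, −1.81 (SE 0.19, adjusted p = 0.00428) on 1449757_x_at and −1.42 (SE 0.28, adjusted p = 0.101) on 1420166_at, which was not called. The 95% interval of the last ran from −2.02 to −0.82. The C5 signal was 28.1%, 28.2% and 36.5% of that of V7. The calls were less stable than the values. With 1 V7 or C5 array left out, which leaves 1 array in that line, the change on the first 2 probe sets stayed between −1.93 and −1.70, but none of the 3 was called. Without the variance trend none was called either (adjusted p = 0.460 on the brightest). With the aliquot number as a block, 1450545_a_at was not called (adjusted p = 0.0565). Other settings went the other way. With only the 4 arrays of V7 and C5 all 3 probe sets were called (limma adjusted p of 0.000141, 0.000183 and 0.00499). They were also all called with the median signal added before log2.

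**Figure D2:**
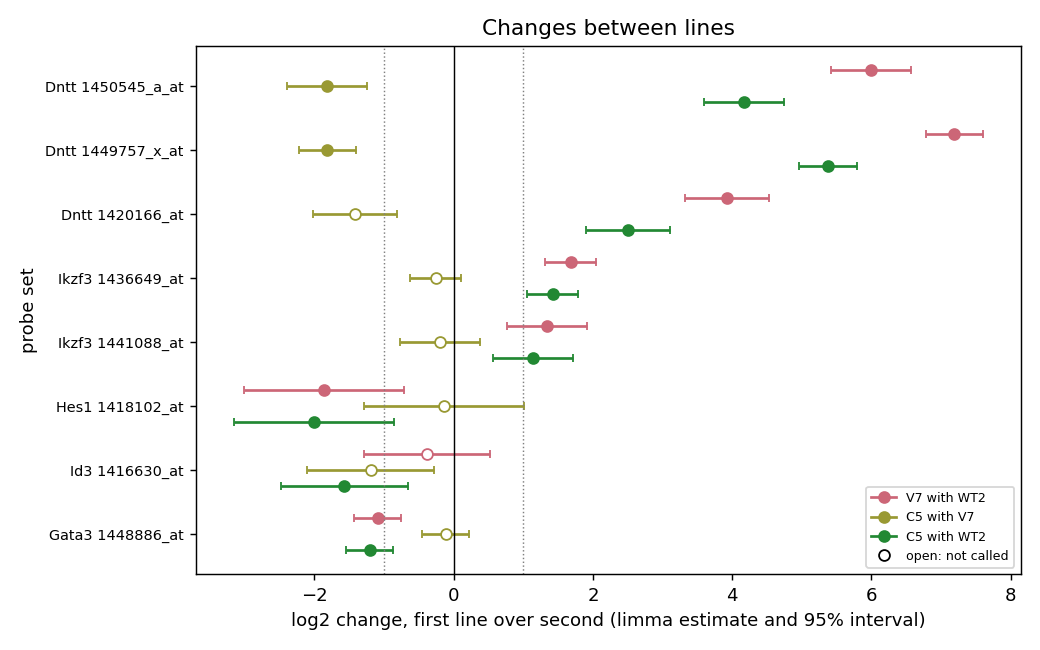
Log2 change of each probe set in the 3 comparisons (x axis, limma estimate with its 95% interval), first line over second, with filled points for called changes. Dotted lines mark 2-fold. Dntt has the largest values in both comparisons with WT2, at 3.92 to 7.19 in V7, and is the only gene with a called change from V7 to C5.

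Ikzf3 was raised in both resistant clones by similar amounts. Its brighter probe set, 1436649_at, gave 423 and 613 in WT2, 1717 and 1574 in V7 and 1454 and 1298 in C5. Every V7 and C5 array was above both WT2 arrays, and the C5 arrays were below the V7 arrays. The log2 change against WT2 was 1.68 in V7 (SE 0.17, adjusted p = 2.21e-05) and 1.42 in C5 (adjusted p = 7.73e-05). The dimmer probe set, 1441088_at, gave 45.4 and 82.5 in WT2, 151 and 176 in V7 and 129 and 155 in C5. There the V7 and C5 arrays overlapped, and all were above WT2. Its changes against WT2 were 1.34 in V7 (adjusted p = 0.00305) and 1.14 in C5 (adjusted p = 0.00733). Without WT2 aliquot 1 they were 0.94 and 0.75, below 2-fold, and the C5 value was also not called without C5 aliquot 2 or without the variance trend (adjusted p of 0.0761 and 0.0672). The changes from V7 to C5 were −0.26 (95% interval −0.62 to 0.10) and −0.19 (−0.77 to 0.38), so a fall of more than 2-fold lies outside both intervals.

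Gata3 was lower in V7 and C5 at nearly the same level. Its probe set, 1448886_at, gave 802 and 656 in WT2, 355 and 323 in V7 and 325 and 299 in C5. WT2 was above both other lines, which overlapped. The log2 change was −1.09 in V7 (SE 0.15, adjusted p = 3.53e-04) and −1.20 in C5 (SE 0.15, adjusted p = 1.60e-04). Without WT2 aliquot 1 the V7 change was −0.94, below 2-fold, and the C5 change stayed called in all 16 other settings. The step from V7 to C5 was −0.12, with a 95% interval of −0.46 to 0.22.

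Hes1 was dim in V7 and C5, where its values rest on few units of signal. Probe set 1418102_at gave 65.3 and 52.6 in WT2, 8.78 and 17.1 in V7 and 4.21 and 22.03 in C5. WT2 lay above all other arrays, and the C5 aliquots, which differed 5.24-fold, enclosed both V7 values. Between the C5 aliquots, the median absolute log2 difference over all tested probe sets was 0.261. The log2 change against WT2 was −1.86 in V7 (SE 0.53, adjusted p = 0.0226) and −2.01 in C5 (SE 0.53, adjusted p = 0.0151). The V7 call was lost without either WT2 aliquot or V7 aliquot 1 (adjusted p of 0.101, 0.0626 and 0.133), and also without the filter or the variance trend. The C5 call was lost without WT2 aliquot 1 (adjusted p = 0.0756), C5 aliquot 1 (0.106) or the variance trend (0.0707). Between V7 and C5 the change was −0.14, with an interval of −1.30 to 1.01. Its sign turned without V7 aliquot 2 or C5 aliquot 1.

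Id3 was the one gene of the 5 named through the list of C5 and V7 alone. Probe set 1416630_at gave 67.0 and 44.6 in WT2, 33.7 and 49.2 in V7 and 8.40 and 25.03 in C5. WT2 and V7 overlapped, and both C5 arrays were below all others. The log2 change from WT2 to V7 was −0.38 (95% interval −1.29 to 0.53, adjusted p = 0.554). From V7 to C5 it was −1.19 (−2.10 to −0.28), with an adjusted p of 0.590 over all tested probe sets and an unadjusted p of 0.0149. Against WT2 Id3 was called lower in C5, by −1.57 (SE 0.42, adjusted p = 0.0158). That call was lost without WT2 aliquot 1 (adjusted p = 0.0870), without C5 aliquot 1 (−0.99, 0.123) or without the variance trend (0.0775). The order of the line means was WT2, V7, C5, but neither neighbouring pair was called.

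**Figure D3:**
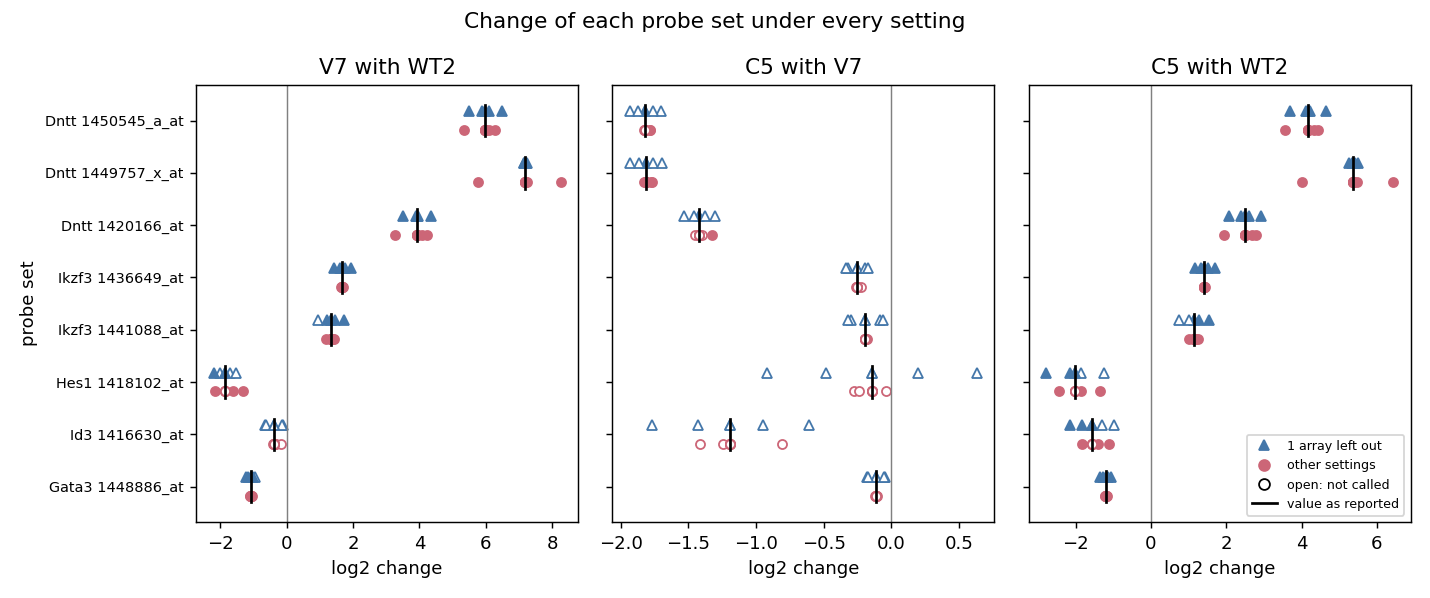
Log2 change of each probe set (x axis) under every setting, with a black bar for the value as reported, triangles for fits without 1 array, circles for the other settings and open symbols where no call was made. Dntt against WT2 stays filled throughout. For Dntt from V7 to C5 the values stay negative while many symbols are open, and Hes1 from V7 to C5 spreads from −0.92 to 0.63.

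The arrays of 7 of the 8 probe sets did not overlap between V7 and WT2, the exception being Id3. All 8 were apart between C5 and WT2, and 5 between C5 and V7. Over all tested probe sets the arrays were apart in 62.3%, 59.6% and 38.9% respectively, so separation alone was common.

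The authors' deposited table of V7 and WT2 gave Dntt ratios of 63.4, 57.7 and 23.0, all up in V7. Its ratios for Ikzf3 were 3.89 and 2.31, up, and those for Hes1 and Gata3 were 2.23 and 2.20, down. These ratios rest on another summary of the arrays than the deposited signals, by a method that the sources used here do not give. The log2 mean of V7 for Dntt 1449757_x_at was 10.08 in one authors' deposited table and 10.97 in the other. Sizes are therefore not comparable between the sources, and for Hes1 the ratio of mean signals computed from the arrays was 4.56, against 2.23 in the authors' deposited table. In the authors' deposited table of C5 and V7, Dntt was down by ratios of 3.12, 3.01 and 2.76, with adjusted p-values of 0.0224, 0.0398 and 0.0335. Id3 was down there by 2.36 with an adjusted p of 0.0655. Directions were the same in both sources for all 11 entries. Both sources rest on the same arrays, and the probe sets were chosen through these lists, so this is no independent check.

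Further genes of Notch signalling and early T cell development were taken from 7 lists with 99 genes in all. Only 16 of them had a probe set named in the authors' lists, the 5 genes above included. Those names exist because the authors had listed a difference, so the counts below are not independent evidence of one. Of the other 11, 3 were higher in V7 than in WT2, 6 lower and 2 not called. Over all tested probe sets, 5.29% were called higher and 7.23% lower. Between C5 and V7, 0 were called by limma in the reported fit or in any other setting, and 2 had an unadjusted p under 0.05. Against WT2 in C5, 4 were higher, 6 lower and 1 not called, where 5.58% of all tested probe sets were higher and 7.46% lower. The median log2 change of the 11 was −1.55 in V7 and −1.14 in C5 against WT2. Over all tested probe sets it was −0.13 and −0.075. Nothing is read from these differences, given how the names arose.

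In the Notch pathway itself, 3 of 28 listed genes had a name. Jag1, a transmembrane ligand of Notch, went from 372 ± 83.6 in WT2 to 27.6 ± 7.09 in V7 and 32.2 ± 5.63 for C5 (mean ± SD, n = 2 each), with a log2 change of −3.53 in V7 (limma adjusted p = 2.54e-06) and −3.33 in C5. A second Jag1 probe set did not pass the filter. Aph1a, a subunit of the gamma-secretase complex that cuts Notch, fell, with log2 changes of −1.61 in V7 and −1.93 in C5. Mfng, a Fringe enzyme that adds sugar to Notch and alters its choice of ligand, was called higher in C5 (1.11, 0.98 without WT2 aliquot 1). In V7 the Mfng change was 0.97, just below 2-fold. Of 16 listed Notch targets 3 were named. Hes1 and Gata3 fell, as given above, whereas the cell cycle inhibitor Cdkn1a rose by 2.29 in V7 and 2.34 in C5. None of the listed Notch receptors, nor Rbpj, had a named probe set.

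Hes6, a relative of Hes1 that in the mouse opposes its repressor activity, was looked up after its values had been seen. It moved opposite to Hes1 on both of its probe sets, of which the brighter has the suffix for probes that may bind other transcripts. The brighter one went from 130 ± 8.52 in WT2 to 447 ± 21.5 in V7 and 279 ± 2.64 on the C5 arrays (n = 2 each), a log2 change of 1.75 in V7 and 1.07 in C5 (limma adjusted p of 1.15e-05 and 4.18e-04). The dimmer gave 2.06 and 1.44. From V7 to C5 the brighter changed by −0.67 (adjusted p = 0.211), which was not called.

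Only 3 of 17 listed transcription factors of the T lineage had a name, and these 3 were called lower in both resistant clones. A name required a difference listed by the authors, so nothing is read about the class. Over all tested probe sets, 7.23% were called lower in V7 and 7.46% in C5 than in WT2. Besides Gata3 the named genes were Satb1, which organises chromatin in thymocytes, and Gfi1, a zinc finger repressor. Satb1 went from 296 ± 29.5 in WT2 to 21.5 ± 4.14 in V7 and 7.56 ± 1.89 on the C5 arrays (n = 2 each), with log2 changes of −3.51 and −4.59. Its C5 signals lay near the added constant, and its change in C5 was −5.13 to −3.62 over the 16 other settings. A second Satb1 probe set gave −3.27 and −3.22, so the lower level in C5 than in V7 appeared on 1 of the 2. That step was not called there (limma adjusted p = 0.352). Gfi1 changed by −1.55 and −1.34. Of 13 E protein, Id protein and partner genes, Tcf12, which encodes the E protein HEB, was named besides Id3 and was not called (0.61 in V7, adjusted p = 0.0923, and 0.64 in C5, adjusted p = 0.0755). Dntt was the single named gene of 14 in receptor gene recombination and end joining, and Ikzf3 of 5 in the Ikaros family. Rag1, Rag2, Ptcra, Tcf7, Bcl11b, Tcf3 and Ikzf1 had no named probe set.

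Receptors of early thymocytes went both ways, with 2 of 4 named genes higher and 2 lower in V7 than in WT2, from a list of 12. Il7r, the receptor subunit for interleukin 7, went from 64.6 ± 17.5 in WT2 to 1205 ± 50.3 in V7 and 680 ± 133 on the C5 arrays (n = 2 each; log2 change 4.14 and 3.31). Its order of lines was that of Dntt, although the step from V7 to C5 (−0.83, adjusted p = 0.212) was not called. Flt3, a receptor of early progenitors, rose by 2.18 and 1.70. Cd24a, a glycoprotein of immature thymocytes, changed by −4.03 and −4.22, sizes that depend on the added constant because its V7 and C5 means of 3.52 and 2.25 were below it. A second Cd24a probe set, with the suffix for probes that may bind other transcripts, gave −2.92 and −2.065. There C5 was above V7 (means of 9.8 and 3.78), a step that was not called. The hyaluronan receptor Cd44 changed by −1.57 in V7 and −1.14 in C5, and the C5 call was lost without C5 aliquot 1 (−0.90).

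**Figure D4:**
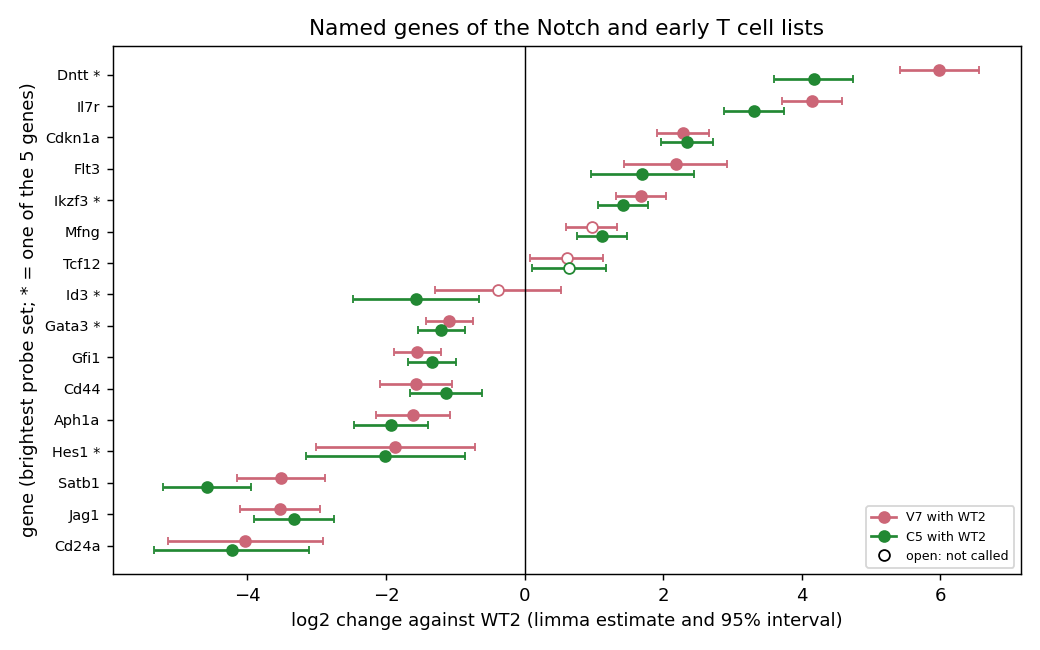
Log2 change against WT2 in V7 and in C5 (x axis, limma estimate with its 95% interval) for the 16 genes with a name in the 7 lists, by their brightest probe set, ordered by the change in V7. Stars mark the 5 genes of interest and open points changes that were not called. Dntt and Il7r lie at the upper end, and Satb1, Jag1 and Cd24a at the lower end, in both clones.

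Of 15 T cell markers 4 were named. Names exist only where the authors had listed a difference, so these 4 cannot check the T cell origin of the lines. Nothing is read from their counts, and 7.23% of all tested probe sets were called lower in V7 than in WT2. Cd3e, the epsilon chain of the T cell receptor complex, was well measured in all lines, with means of 2008 ± 200 in WT2, 982 ± 92.6 in V7 and 1031 ± 185 on the C5 arrays (n = 2 each). All 4 were called lower in V7, Cd3e by −1.03, a call lost without WT2 aliquot 2 or V7 aliquot 2 (−0.93 each). In C5, 3 of the 4 were called lower than in WT2, and Cd3e (−0.97) was below 2-fold. Cd2, an adhesion receptor, went from 841 ± 65.3 to 4.08 ± 4.49 in V7 and 3.86 ± 4.14 in C5. Cd247 was lower on all of its named probe sets, the brightest going from 596 ± 31.0 to 5.38 ± 5.48 in V7 and 1.16 ± 0.19 in C5. Cd5 went from 606 ± 100 to 128 ± 29.0 in V7 and 46.2 ± 8.97 in C5. In V7 and C5 most of the summed signal of the 4 was that of Cd3e. This sum was 4010 to 4100 in WT2, 1070 to 1170 in V7 and 943 to 1220 on the C5 arrays. Because the 4 were named through a listed difference, this sum is no independent measure of T cell content. Its relation to the changes of Dntt, Ikzf3 and Gata3 was not tested. Of 35 markers of 7 other cell types 5 were named. The mast cell protease Cpa3 had 1997 ± 371 in WT2 and 6.82 ± 6.22 in V7, whereas Mcpt8, a protease of basophils, had 13.9 ± 14.0 and 50.03 ± 15.4. The 2 named fibroblast markers went opposite ways. Acta2, a smooth muscle actin, had 5987 ± 563 in WT2 and 49.6 ± 19.7 in V7, whereas Pdgfra, a growth factor receptor, had 2.29 ± 0.58 and 75.9 ± 14.0. Their sum, carried in WT2 by Acta2, was 5590 to 6390 in WT2, 121 to 130 in V7 and 89.4 to 99.7 on the C5 arrays. The natural killer protease Gzma had 31.6 ± 9.39 in WT2, 119 ± 15.4 in V7 and 291 ± 60.3 on the C5 arrays.

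The genes whose profiles over the 6 arrays were most like each member were sought among the authors' named probe sets, by the root mean square difference of log2 values centred on each probe set's own mean. For Gata3 the nearest were Heat shock protein 4 like (0.0519), NCK associated protein 1 like (0.0720) and Inositol (myo)-1(or 4)-monophosphatase 1 (0.0797). For Ikzf3 they were Calcium/calmodulin-dependent protein kinase IV (0.0447), Transmembrane protein 28 (0.0673) and Potassium channel tetramerisation domain containing 3 (0.0761). Differences were larger for the other genes. The measure is not scaled and grows with the size of a gene's change and its aliquot spread, so its values do not rank the members. Hes1 was nearest to Transmembrane protein 119 (0.231), ATP-binding cassette, sub-family G (WHITE), member 2 (0.311) and Ring finger protein 19A (0.322). Id3 was nearest to Placental protein 11 related (0.284), Serine dehydratase-like (0.327) and GTPase, IMAP family member 1 (0.376). Dntt was nearest to Fatty acid binding protein 4, adipocyte (0.647), Histone cluster 1, H1c (0.649) and Basic helix-loop-helix domain containing, class B, 8 (0.654). All points share the 6 arrays and the split between WT2 and the other lines, and the authors had picked the named probe sets for differences between lines.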

How the data were processed

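RNA from 3 EL4 clones, 2 aliquots each, was measured on 6 Affymetrix arrays. The deposited table holds linear signal intensities made by the authors with MAS5, whose version is not given in the sources used here, per the submitters' processing notes. The authors' deposited lists hold, per the file headers, log2 means, fold ratios and p-values of a t-test with adjusted values. They served only for gene names and for the values credited to them, and symbols were matched to the deposited names by hand.

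Control probe sets (64) were removed. Signals were analysed as log2(signal + 5.03), the constant being the 25th percentile, and 27022 probe sets entered the test because their mean exceeded the 40th percentile (11.7). The fit covered all 6 arrays, each line with its own mean, and used limma 3.58.1 under R 4.3.3 with a variance trend and Benjamini-Hochberg adjustment over all tested probe sets, two-sided, and tested on simulated data. Alternatives were other constants, filters, thresholds and variance models, quantile normalization, the aliquot number as a block and fits without each array. Named genes were all member probe sets, up to 4 called genes per list with the largest change by their brightest probe set, fixed partners, and the 3 nearest profiles per member. Probe sets ending in _x_at or _s_at and entries without a gene name were left out of that search. The members and lists were chosen with earlier results of these data known. Python 3.11.15 with pandas 2.3.3 and numpy 2.4.6 made the tables, and matplotlib 3.10.9 the figures. The number of arrays limits the precision. RefSeq sequences came from GRCm38.p6.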

Additional observations from a re-analysis of the deposited data

How the results depend on the processing

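For the 8 probe sets in 3 comparisons, 381 values were computed under other settings. Of these 342 kept direction and call, 33 lost a call, 4 gained one (Dntt 1420166_at from V7 to C5) and 2 changed sign, both for Hes1 from V7 to C5 (0.19 without V7 aliquot 2 and 0.63 without C5 aliquot 1, the upper end of −0.92 to 0.63 with 1 array left out). Hes1 was not tested with the filter at the 60th percentile. The number of the 8 called between C5 and V7 was 2, but 1 with 1 added before log2, without the filter, with the aliquot number as replicate block or at an adjusted p below 0.01, and 0 without the variance trend. It was 3 with the median signal added or with only the 4 arrays of both lines. For C5 with WT2 the number was 5 in place of 8 without the trend. With 1 array left out the number was 4 to 7 for V7 with WT2 (4 without WT2 aliquot 1), 0 to 3 for C5 with V7 and 5 to 8 for C5 with WT2 (5 without WT2 aliquot 1). A line left with 1 array was assumed to vary like the others. Over all probe sets, dropping the fold limit raised the calls from 3385 to 6648 (V7 with WT2) and from 3524 to 6945 (C5 with WT2). For C5 with V7 the 27 calls became 55 with the median signal added, 72 with only the 4 arrays of both lines, 15 with the replicate block, 13 at an adjusted p below 0.01 and 4 without the trend, and 5 to 68 with 1 array left out. The causes were not tested. Aliquots with the same number did not deviate together (r of −0.038, 0.0032 and 0.040 between lines), so the block pairs numbers only. It left the members' calls against WT2 at 7 and 8. Quantile normalization moved the median change over all probe sets from −0.13 to 0.017 for V7 with WT2, and no member changed its call. Signals near or below the added constant limit Dntt in WT2, and Hes1 and Id3 in C5.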
